A study of Mus musculus with 20 samples.

Results

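The genes described here are the E protein genes Tcf3, Tcf4 and Tcf12 and the genes of their inhibitors Id1, Id2 and Id3. They were chosen by gene symbol, and every probe set carrying 1 of these 6 symbols was kept, which gave 19 of the 45101 probe sets of the array: 3 for Tcf3, 6 for Tcf4, 5 for Tcf12, 1 for Id1, 3 for Id2 and 1 for Id3. RNA from populations sorted from mouse bone marrow was hybridised to 20 Affymetrix arrays in 9 groups, with the mice 8 to 14 weeks old. From wild-type C57bl/6 mice came hematopoietic stem cells (HSC), multipotent progenitors (MPP), lymphoid-primed multipotent progenitors (LMPP), pro-B cells and CD4 T cells with 2 arrays each, and common lymphoid progenitors (CLP) and granulocyte-monocyte progenitors (GMP) with 3 arrays each. Mature NK cells came from 129 mice that all lacked Rag2, and so have no B or T cells of their own, with either intact Ets1 (Rag2-- Ets1++, 2 arrays) or a deletion of it (Rag2-- Ets1--, 2 arrays). Any comparison of NK cells with another population is therefore also a comparison of strains and of Rag2 genotypes, and these cannot be told apart.

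E proteins are basic helix-loop-helix transcription factors that pair with each other and bind a short DNA motif, the E-box, at genes of the B and T cell programmes. Id proteins have the helix-loop-helix but no DNA-binding region, so an E protein paired with an Id protein no longer binds DNA. The development of B and T cells is known to need E protein activity, and that of NK cells and other innate lymphocytes to need Id2.

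Id2 and Id3 showed the widest differences between populations among the Id genes, and the 250 bases before their start sites are shown because the E-box is the motif that E proteins bind. The sequences are from RefSeq (GRCm38.p6), 5′ to 3′ on the gene's strand, and capitals mark each E-box (CANNTG, searched on both strands).
Id2, chr12:25096093-25096342, minus strand: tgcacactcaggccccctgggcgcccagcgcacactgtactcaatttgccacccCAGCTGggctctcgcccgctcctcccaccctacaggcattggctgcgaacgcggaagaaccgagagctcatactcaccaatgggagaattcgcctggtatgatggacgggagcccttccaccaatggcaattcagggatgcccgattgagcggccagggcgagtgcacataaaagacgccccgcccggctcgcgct
Id3, chr4:136143572-136143821, plus strand: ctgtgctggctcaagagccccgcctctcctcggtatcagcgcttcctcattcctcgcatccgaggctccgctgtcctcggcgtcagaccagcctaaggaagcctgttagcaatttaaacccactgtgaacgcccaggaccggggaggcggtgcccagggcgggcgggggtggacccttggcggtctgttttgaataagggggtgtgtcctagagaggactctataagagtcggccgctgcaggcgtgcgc
The Id2 window held 1 E-box, which starts 196 bases before the start site, and the Id3 window held none. Among 32851 promoter windows of the same length, 66.2% held at least 1 E-box. CCGGAA, a core bound by ETS factors, was in neither window and in 12% of all windows, and GCGNGGGCG, a motif of EGR factors, was in neither and in 4.7%. The table held windows for 4 of the 6 genes.

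All levels below are log2 of the deposited intensity. Array medians lay between 3.78 and 4.04, so a level near or under 4 is that of a dim probe set, and a fold against such a level depends on that floor. Markers were highest in the population they stand for with 6 of 6 CD4 T cell markers, 5 of 5 pro-B, 5 of 5 GMP and 4 of 4 NK markers (in NK cells with Ets1), 3 of 4 HSC markers, and 5 of 6 lymphoid progenitor markers in CLP. MPP and LMPP had no marker list of their own. The ratio of 3′ to 5′ actin signal, which grows as RNA is degraded or cut short in labelling, was highest in GMP (6.44 to 6.68 log2 units) and in CLP replicates 1 and 3 (5.20 and 5.27), against 0.97 to 4.07 on all the other arrays. The mean of 12 housekeeping genes was lowest in CLP (9.79) and GMP (10.25) and lay between 10.38 and 10.81 in the remaining groups. The labels used here give no sex of the mice. The Y-linked gene Kdm5d was read on its probe set of highest mean. It stood at 1.97 to 2.26 in pro-B and CD4 T cells and at 4.53 to 6.78 on all the other arrays. Xist, which is transcribed from the inactive X chromosome, was read on a probe set that is not its highest in mean. It stood at 9.75 to 11.08 in pro-B, CD4 T and NK cells and at 2.31 to 3.32 in HSC, MPP, LMPP, CLP and GMP. In comparisons of pro-B, CD4 T or NK cells with CLP, and of NK with pro-B or CD4 T cells, the sex of the mice and the population cannot be told apart. The NK arrays had signal of both genes. Kdm5d stood at 5.33 and 5.52 and Xist at 9.80 and 10.17 in NK cells with Ets1. In NK cells without it Kdm5d stood at 4.66 and 5.20 and Xist at 11.08 and 10.53. On these probe sets the NK genotypes did not overlap. On the Xist probe set of highest mean they did not overlap either, with 8.65 and 9.08 with Ets1 and 9.78 and 9.48 without it. On another Xist probe set they did overlap, with 6.20 and 6.84 with Ets1 and 8.30 and 6.40 without it. Sex and Ets1 genotype thus cannot be told apart there either. Because RNA was pooled from many cells, fewer cells expressing a gene and less RNA of it per cell cannot be told apart. The labels do not say whether replicates came from separate mice, so the p-values measure the spread between these arrays, which may be technical.

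Of the 19 probe sets, 16 were bright enough to be tested, that is, above the median of no fewer than 2 arrays. The 3 that did not were the only Id1 probe set, 1 of Id2 (1453596_at) and 1 of Tcf4 (1416725_at). The level differed among the 9 populations for 15 of the 16 by an F test, where 73.4% of all probe sets tested did. The exception was the Tcf12 probe set 1439209_at (adjusted p = 0.0522). For each gene the values below are those of its probe set of highest mean unless another is named.

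**Figure D1:**
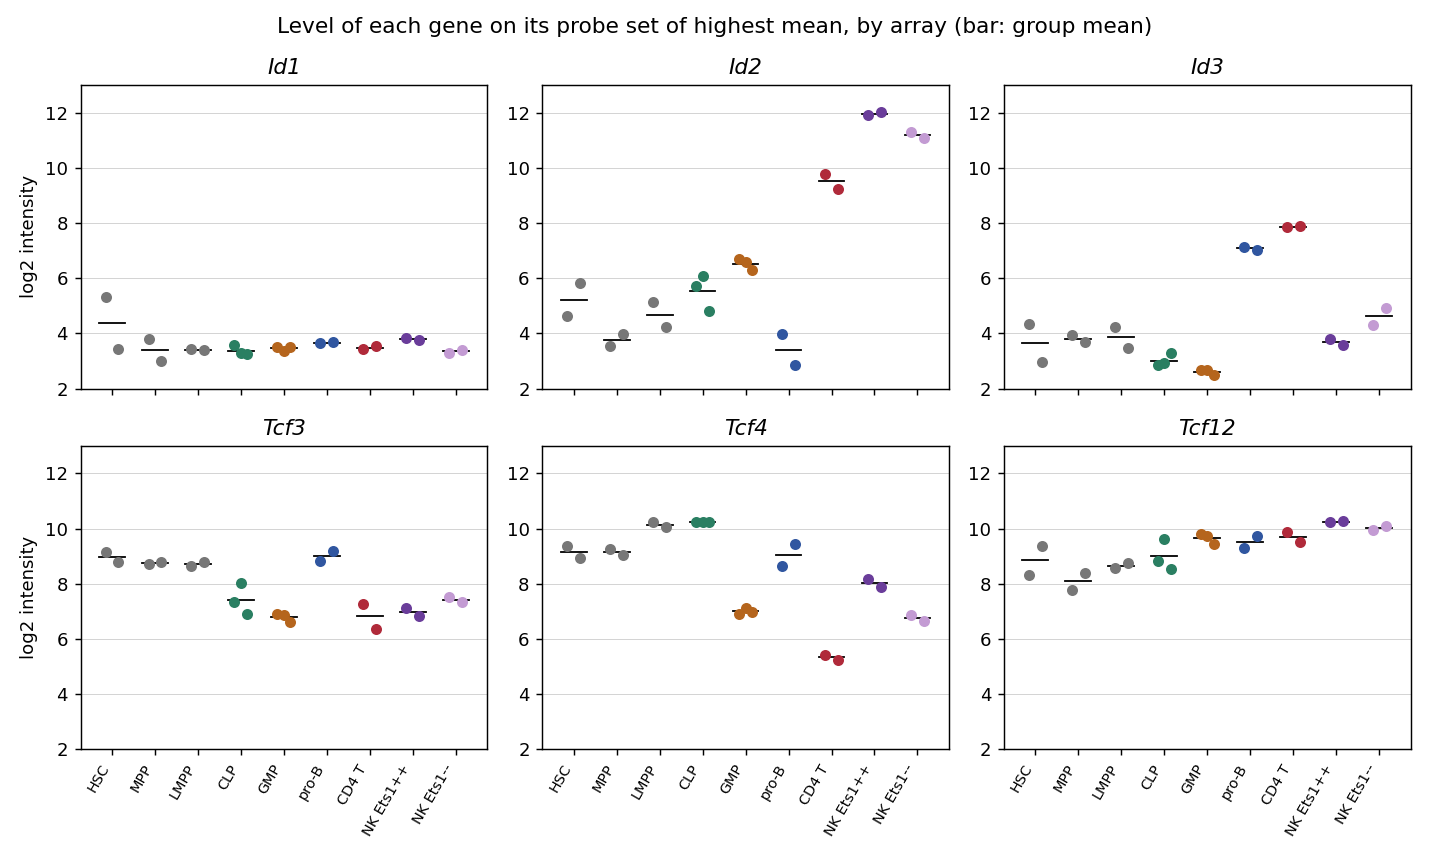
Log2 intensity (y axis) of the 6 genes in the 9 populations (x axis) on the probe set of highest mean, with 1 point per array and a bar at the group mean. Id2 lies between 11.06 and 12.03 in NK cells and at or under 6.68 outside NK and CD4 T cells, Id3 is high in pro-B and CD4 T cells, and Tcf4 is lowest in CD4 T cells.

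Tcf3 encodes the E protein best known for its part in starting the B cell programme. Its level was 9.16 and 8.78 on the HSC arrays, 8.70 and 8.79 in MPP, 8.66 and 8.78 in LMPP, and 8.81 and 9.17 in pro-B cells. It was 7.35, 8.02 and 6.92 in CLP, 6.92, 6.86 and 6.62 in GMP, 7.28 and 6.36 in CD4 T cells, 7.12 and 6.82 in NK cells with Ets1 and 7.50 and 7.34 in NK cells without it. The populations thus fell into a high set (HSC, MPP, LMPP and pro-B cells, all arrays at or above 8.66) and a low set (CLP, GMP, CD4 T and NK cells, all arrays at or below 8.02), with no overlap between them. Within the high set the arrays of neighbours in the order of means overlapped, and in the low set they did too, except between NK cells without and with Ets1. The second probe set (1427764_a_at) followed the first with Pearson's r = 0.95 over the 20 arrays, and the third (1452542_x_at), with levels of 3.12 to 5.10, with r = 0.69.

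Tcf4 encodes the E protein known for directing plasmacytoid dendritic cell development. Its level was 10.24 and 10.04 in LMPP and 10.25, 10.24 and 10.24 in CLP, the highest of all populations. HSC followed with 9.36 and 8.93, MPP with 9.26 and 9.05 and pro-B cells with 8.63 and 9.44, and these 3 overlapped each other. NK cells with Ets1 had 8.16 and 7.87, GMP 6.89, 7.13 and 6.97, NK cells without Ets1 6.89 and 6.65, and CD4 T cells 5.42 and 5.24, each step down without overlap, the lowest GMP array and the highest array of NK cells without Ets1 both rounding to 6.89. Plasmacytoid dendritic cell markers, of which 7 of 7 were measured, had means of 5.92 in CLP and 6.27 in CD4 T cells and of 4.33 to 5.32 elsewhere. Of the 7, 3 were highest in CLP, 2 in CD4 T cells, 1 in GMP and 1 in pro-B cells. Their part in the Tcf4 levels was not tested.

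Tcf12 encodes the third E protein, which pairs with the product of Tcf3 in thymocytes. Its level was highest in NK cells, at 10.24 and 10.27 with Ets1 and 9.93 and 10.09 without, and lowest in MPP, at 7.77 and 8.41. CD4 T cells had 9.87 and 9.50, GMP 9.80, 9.71 and 9.44, pro-B cells 9.28 and 9.72, CLP 8.83, 9.63 and 8.55, HSC 8.33 and 9.37, and LMPP 8.57 and 8.74. From CD4 T cells through GMP, pro-B cells, CLP and HSC to LMPP each neighbour in the order overlapped the next, so this order is not resolved. The range of its group means, 2.16, was the narrowest of the 5 genes that passed the filter, next to 2.19 for Tcf3, 4.92 for Tcf4, 5.26 for Id3 and 8.55 for Id2. The 5 Tcf12 probe sets followed each other less closely than those of Tcf3, with r from 0.07 to 0.80.

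Id2 encodes the inhibitor that NK cells need. Its level was 11.90 and 12.03 in NK cells with Ets1, 11.29 and 11.06 in NK cells without it, and 9.79 and 9.23 in CD4 T cells. GMP came next with 6.68, 6.57 and 6.29, then CLP with 5.72, 6.09 and 4.82, HSC with 4.63 and 5.82 and LMPP with 5.12 and 4.24. MPP had 3.53 and 3.99 and pro-B cells 3.97 and 2.86, which is at the level of a dim probe set. The first 4 groups did not overlap with each other or with those below, while CLP, HSC and LMPP overlapped, as did MPP and pro-B cells. Of 4 NK markers, 3 were above the array median in both CD4 T cell arrays, and the mean of the 4 was 5.89 there (5.81 to 5.96 by array), against 3.37 to 4.46 by array in HSC, MPP, LMPP, CLP, GMP and pro-B cells and 10.49 in NK cells with Ets1. The remaining marker of the 4 was Ncr1, an activating receptor typical of NK cells. It ranged from 3.39 to 3.83 in CD4 T cells, near the array medians, and had a mean of 9.71 in NK cells with Ets1. The part of these genes' cells in the Id2 level of CD4 T cells was not tested.

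Id3 encodes an inhibitor that antigen and pre-antigen receptor signals are known to induce. It was high in just 2 populations: CD4 T cells (7.84 and 7.88) and pro-B cells (7.12 and 7.03). NK cells without Ets1 had 4.30 and 4.93, LMPP 4.24 and 3.49, MPP 3.93 and 3.67, NK cells with Ets1 3.81 and 3.57, HSC 4.33 and 2.96, CLP 2.86, 2.91 and 3.28 and GMP 2.66, 2.66 and 2.49. From LMPP through HSC to CLP neighbours overlapped, and most of these values are those of a dim probe set. Id1, a target of bone morphogenetic protein signals, was above the array median on 1 of the 20 arrays, HSC replicate 1 (5.31), while HSC replicate 2 stood at 3.43 and the other 18 arrays between 3.00 and 3.83.

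**Figure D2:**
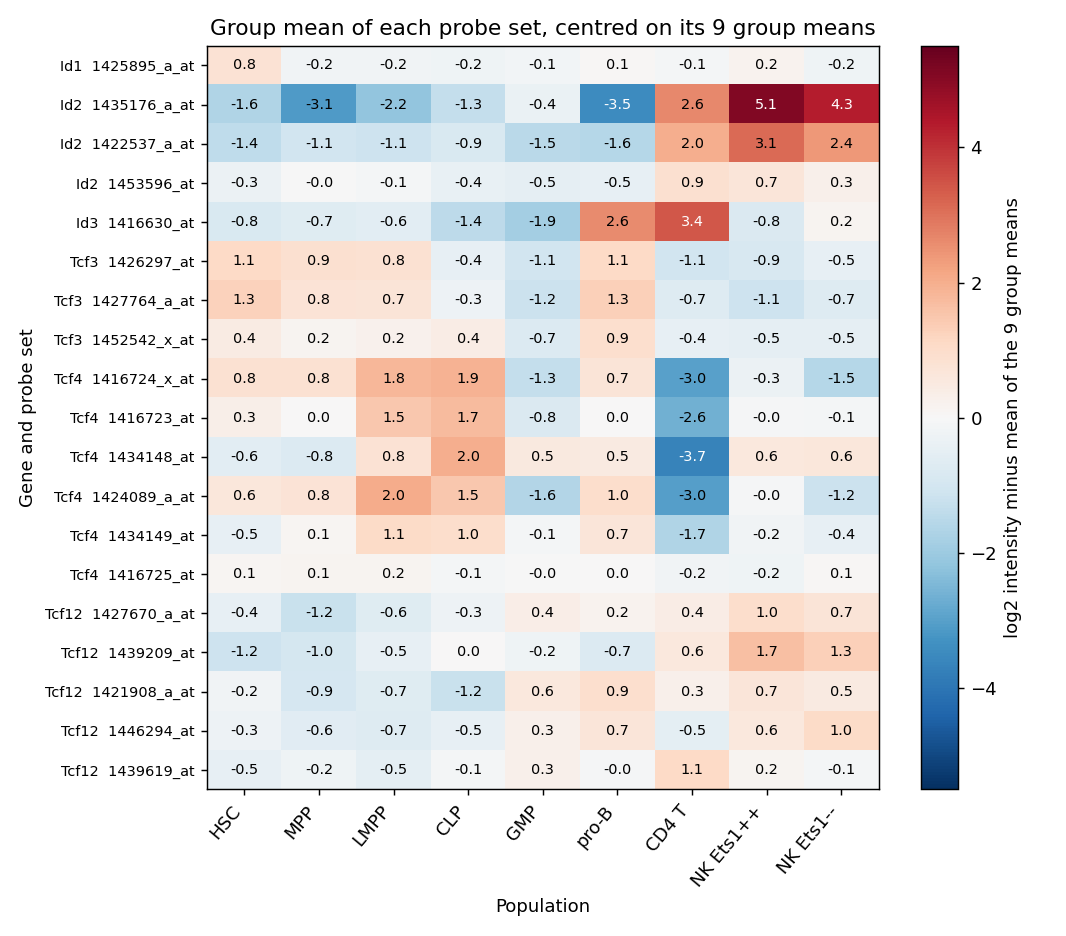
Group mean of each of the 19 probe sets (rows) in the 9 populations (columns), with the mean of the 9 group means of that probe set subtracted and the log2 difference printed in each cell. Id2 1435176_a_at is lowest in pro-B cells (mean level 3.41) and highest in NK cells with Ets1 (11.97), and all 5 tested Tcf4 probe sets are lowest in CD4 T cells.

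From HSC to MPP, the first step out of the stem cell compartment, no member probe set of 16 passed the test (adjusted p below 0.05), where 3.45% of all probe sets did. The largest difference was that of Id2, -1.46 ± 0.46 (SE; adjusted p = 0.0994). From MPP to LMPP, the lymphoid-primed population, Tcf4 rose on 2 probe sets. These were 1416723_at, by 1.44 ± 0.29 (adjusted p = 0.016), and 1434148_at, by 1.56 ± 0.35 (adjusted p = 0.042). No other member was called, where 0.907% of all probe sets were. The other 3 Tcf4 probe sets tested were higher in LMPP by 0.95 to 1.28 without passing. Both calls were lost without any single one of the 4 arrays: 1416723_at then had 1.25 (adjusted p = 0.187) without MPP replicate 1, 1.63 (0.0571) without MPP replicate 2, 1.63 (0.0705) without LMPP replicate 1 and 1.25 (0.288) without LMPP replicate 2, and 1434148_at had 1.39, 1.72, 1.35 and 1.76.

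From LMPP to CLP, Tcf3 fell and Tcf4 rose on 1 probe set, while Id2 and Id3 did not pass. Of the 16 probe sets, 1 rose and 2 fell, against 21.3% of all probe sets called, a share close to that of the members. Tcf3 fell by 1.29 on the log2 scale (SE 0.32, 2.45-fold; adjusted p = 0.00776) and on its second probe set by 1.00 (SE 0.27; adjusted p = 0.0125), and Tcf4 1434148_at was 1.20 ± 0.32 higher (adjusted p = 0.0136). Id2 differed by 0.86 ± 0.42 (adjusted p = 0.158) and Id3 by -0.85 ± 0.33 (adjusted p = 0.0731). The Tcf3 calls depend on how the arrays are scaled. Centring each array on housekeeping genes moved the median of all probe sets by 1.01 and left Tcf3 at -0.28 (adjusted p = 0.361) and 0.01 (adjusted p = 0.971) on these probe sets, with Id2 higher by 1.88 (adjusted p = 0.000613) and Tcf4 1434148_at by 2.21 (adjusted p = 3.82e-05). With CLP replicate 2, the array with the least 3′ bias of the CLP group, as the single CLP array, Tcf3 differed by -0.70 (adjusted p = 0.247) and Tcf4 1434148_at by 1.19 (0.109). On the LMPP and CLP arrays alone none of the 3 was called (adjusted p = 0.126 and 0.181 for Tcf3 and 0.0957 for Tcf4). Without LMPP replicate 1 or 2, Tcf3 differed by -1.35 (adjusted p = 0.0537) and -1.23 (0.0767), its second probe set by -0.97 (0.0927) and -1.03 (0.0765), and Tcf4 1434148_at, without LMPP replicate 2, by 0.99 (0.153).

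In GMP, the myeloid branch, Tcf3 and Tcf4 were lower than in LMPP and Id2 and Tcf12 higher. Of the 16 probe sets 5 rose and 8 fell, where 24.5% of all probe sets were called. Tcf4 was 8.81-fold lower (-3.14 ± 0.26; adjusted p = 1.02e-07), Tcf3 3.78-fold lower (-1.92 ± 0.32; adjusted p = 0.000236) and Id2 3.56-fold higher (1.83 ± 0.42; adjusted p = 0.00364). All 3 Tcf3 probe sets fell, 4 of 5 Tcf4 probe sets fell, and 4 of 5 Tcf12 probe sets rose by 0.81 to 1.27. Id3 fell by 1.26 (SE 0.33; adjusted p = 0.00844), between levels that are dim in both groups. The calls of Id2, Id3 and Tcf12 rested on single arrays: without LMPP replicate 2 Id2 differed by 1.39 (adjusted p = 0.0925), without LMPP replicate 1 Id3 by -0.88 (0.168), and without LMPP replicate 1 or 2 or GMP replicate 1 or 2 Tcf12 by 0.91 (0.197), 1.08 (0.119), 0.93 (0.106) and 0.97 (0.0917). All 4 Tcf12 calls were lost without either LMPP array. Of the Tcf3 calls, that of the dim 1452542_x_at (-0.99) was lost without LMPP replicate 2 (-0.75, 0.193) or GMP replicate 1 (-0.91, 0.0598) and with housekeeping centring (-0.43, 0.404). Of the Tcf4 calls, that of 1434149_at (-1.18) was lost without any single LMPP array or GMP replicate 2 or 3 (adjusted p from 0.0925 to 0.161), after quantile normalization (0.0677) and with housekeeping centring (-0.62, 0.195). The Id2 probe sets did not share a direction, since 1422537_a_at differed by -0.38 ± 0.26 (adjusted p = 0.335), with levels of 2.67 to 3.14 on all 5 arrays, and the mean of the Id2 probe sets differed by 0.35 (0.252). Id3 was also not called with housekeeping centring (-0.70, 0.203).

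From CLP to pro-B cells, commitment to the B lineage, Tcf3 and Id3 rose and Id2 and Tcf4 fell. Of the 16 probe sets 5 rose and 5 fell, where 30.0% of all probe sets were called. Id3 was 16.7-fold higher in pro-B cells (4.06 ± 0.33; adjusted p = 1.14e-07) and Tcf3 2.95-fold higher (1.56 ± 0.32; adjusted p = 0.00133). Id2 was 4.38-fold lower (-2.13 ± 0.42; adjusted p = 0.00109) and Tcf4 2.31-fold lower (-1.21 ± 0.26; adjusted p = 0.00187). Tcf12 rose on 2 of its 5 probe sets, by 2.16 ± 0.40 on 1421908_a_at (adjusted p = 0.000629) and 1.14 ± 0.35 on 1446294_at (adjusted p = 0.0192), while that of highest mean differed by 0.50 ± 0.33 (adjusted p = 0.277). With CLP replicate 2 as the single CLP array Id3 differed by 4.16, Id2 by -2.67 and Tcf4 by -1.21, all called, and Tcf3 by 0.97 (adjusted p = 0.0642). With housekeeping centring Tcf3 was called at 0.87 (adjusted p = 0.0114), and Tcf12 1446294_at was not (0.45, 0.287), nor was it with CLP replicate 2 alone (0.89, 0.243). On the CLP and pro-B arrays alone neither Tcf3 (adjusted p = 0.0667) nor Tcf4 (0.11) was called. Tcf4 was not called without pro-B replicate 1 (-0.80, adjusted p = 0.0526), nor Tcf12 1446294_at without CLP replicate 1 (1.02, 0.0596) or pro-B replicate 2 (0.58, 0.314). The pro-B markers already stood at a mean of 7.79 in CLP, against 9.72 in pro-B cells and 3.63 to 4.11 in the other groups.

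CD4 T cells differed from CLP by much higher Id2 and Id3 and much lower Tcf4. Of the 16 probe sets 5 rose and 6 fell, where 42.4% of all probe sets were called. Id3 was 28.7-fold higher (4.85 ± 0.33; adjusted p = 2.55e-09), Id2 15.6-fold higher (3.97 ± 0.42; adjusted p = 9.6e-07) and Tcf4 30.2-fold lower (-4.92 ± 0.26; adjusted p = 8.91e-11), and all 5 Tcf4 probe sets tested fell, by 2.64 to 5.66. Tcf3 differed by -0.61 ± 0.32 (adjusted p = 0.13), and of its other probe sets the dim 1452542_x_at differed by -0.86 and was called (adjusted p = 0.0213). That call was lost without CLP replicate 3 (-0.57, 0.0958) or CD4 T replicate 2 (-0.62, 0.193), after quantile normalization (-0.77, 0.0613), with CLP replicate 2 alone (-0.69, 0.133) and on the compared arrays alone (0.13). With housekeeping centring all 3 Tcf3 probe sets were called, at -1.49, -1.30 and -1.73. Tcf12 differed by 0.68 ± 0.33 (adjusted p = 0.108), while 2 of its other probe sets rose, 1421908_a_at by 1.49 and 1439619_at by 1.22. With housekeeping centring neither was called (0.62, adjusted p = 0.145, and 0.34, 0.436), and 1421908_a_at was not called without CD4 T replicate 1 (1.18, 0.0891) or with CLP replicate 2 alone (0.89, 0.202). With CLP replicate 2 as the single CLP array Tcf3 was lower in CD4 T cells by 1.20 on the log2 scale and was called (-1.20, adjusted p = 0.015). Of all genes 28.1% were higher and 18.3% lower in CD4 T cells than in CLP. Among macrophage markers 3 of 5 were called higher and 0 lower (a mean of 4.91, 4.71 to 5.10 by array, against 3.93, 3.89 to 3.99). All 5 were above the array median in CD4 T cells. Of 4 tested dendritic cell markers 2 were higher and 1 lower (a mean over 5 of 6.14, 6.09 to 6.20 by array, against 5.39, 5.32 to 5.47). Their part in the differences of Id2, Id3 and Tcf4 was not tested.

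NK cells with Ets1 differed from CLP by the highest Id2 level of the series, with lower Tcf4 and higher Tcf12. Of the 16 probe sets 5 rose and 7 fell, where 46.2% of all probe sets were called, so calls were frequent throughout this comparison. Id2 was 85.7-fold higher (6.42 ± 0.42; adjusted p = 1.99e-09), Tcf12 2.38-fold higher (1.25 ± 0.33; adjusted p = 0.00554) and Tcf4 4.70-fold lower (-2.23 ± 0.26; adjusted p = 2.28e-06). Id3 differed by 0.67 ± 0.33 (adjusted p = 0.0997) and Tcf3 by -0.45 ± 0.32 (adjusted p = 0.25). The other 2 Tcf3 probe sets were called, at -0.84 (1427764_a_at, adjusted p = 0.016) and -0.91 (1452542_x_at, 0.0138). The first call was lost without CLP replicate 2 (-0.56, 0.062) or NK replicate 1 (-0.83, 0.0851) or 2 (-0.85, 0.0779) and on the compared arrays alone (0.112). The second was lost without CLP replicate 3 (-0.63, 0.0639) or NK replicate 1 (-0.71, 0.148), with CLP replicate 2 alone (-0.75, 0.0919) and on the compared arrays alone (0.0875). With housekeeping centring all 3 Tcf3 probe sets were called, at -1.04, -1.42 and -1.50. With CLP replicate 2 as the single CLP array Tcf3 differed by -1.04 and was called (adjusted p = 0.0287), and Tcf12 by 0.62 and was not (adjusted p = 0.226). The comparisons of pro-B, CD4 T and NK cells each use the same 3 CLP arrays, so they are not independent of each other.

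**Figure D3:**
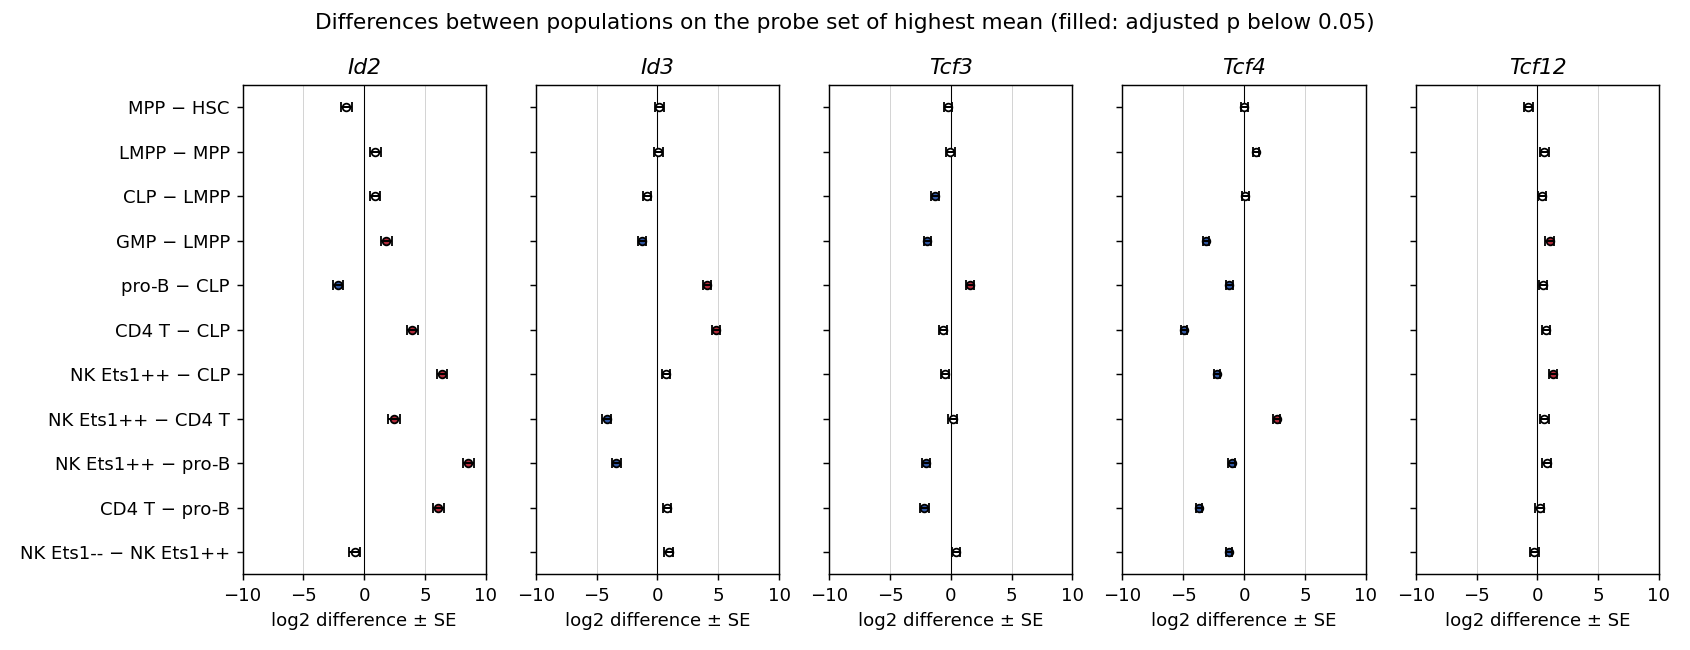
Difference in log2 intensity with its SE (x axis) for the 11 comparisons between populations (y axis), on the probe set of highest mean of the 5 genes that were tested. Filled points passed at an adjusted p below 0.05, red where the first-named population was higher and blue where it was lower; Id2 reaches 8.55 in NK cells against pro-B cells and Tcf4 -4.92 in CD4 T cells against CLP.

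The 3 lymphocyte populations were also compared with each other, without the CLP arrays. NK cells with Ets1 had 375-fold more Id2 than pro-B cells (8.55 ± 0.46; adjusted p = 1.76e-10), 10.5-fold less Id3 (-3.39 ± 0.36; adjusted p = 9.82e-07) and 4.04-fold less Tcf3 (-2.02 ± 0.35; adjusted p = 0.00023). In this comparison 3 probe sets rose and 6 fell, where 30.0% of all probe sets were called. The rises included Tcf12 1439209_at (2.40, adjusted p = 0.0417), which had not passed the F test. That call was lost without any single array of these groups, without the filter on dim probe sets (0.0511) and after quantile normalization (0.127). The call of Tcf4 1424089_a_at (-1.02, adjusted p = 0.046) was also lost without any single array of these groups. Tcf4 fell by 1.03 (SE 0.28; adjusted p = 0.00965), a call lost without pro-B replicate 2 (-0.62, adjusted p = 0.161) or NK replicate 2 (-0.88, 0.0995), and its probe sets 1416723_at and 1434148_at differed by -0.05 and 0.09.

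CD4 T cells had 68.4-fold more Id2 than pro-B cells (6.10 ± 0.46; adjusted p = 1.57e-08), 4.51-fold less Tcf3 (-2.17 ± 0.35; adjusted p = 0.00011) and 13.1-fold less Tcf4 (-3.71 ± 0.28; adjusted p = 1.58e-08). Here 3 probe sets rose and 9 fell, where 25.9% of all probe sets were called, and the 9 included all 3 of Tcf3 and all 5 of Tcf4. Tcf12 was called in opposite directions, 1439619_at at 1.14 (adjusted p = 0.00623) and 1446294_at at -1.21 (0.0251). The first call was lost without pro-B replicate 1 or CD4 T replicate 2 and with housekeeping centring (0.95, 0.103). The second was lost without pro-B replicate 2 or either CD4 T array. On the compared arrays alone neither was called (0.0577 and 0.0842). Id3 differed by 0.79 ± 0.36 and did not pass (adjusted p = 0.122).

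NK cells with Ets1 had 5.49-fold more Id2 than CD4 T cells (2.46 ± 0.46; adjusted p = 0.000685), 18.1-fold less Id3 (-4.17 ± 0.36; adjusted p = 8.92e-08) and 6.42-fold more Tcf4 (2.68 ± 0.28; adjusted p = 1.16e-06). In this comparison 8 probe sets rose and 2 fell, where 23.1% of all probe sets were called. All 5 Tcf4 probe sets rose, by 1.48 to 4.26. Without CD4 T replicate 2 or NK replicate 2 the count of called probe sets was 6, and the calls of Id2, Id3 and Tcf4 on their probe sets of highest mean stayed. Tcf3 differed by 0.16 ± 0.35 (adjusted p = 0.814) and Tcf12 by 0.57 ± 0.37 (adjusted p = 0.309). The other Tcf12 probe sets did not share a direction: 1446294_at differed by 1.09 (adjusted p = 0.0462) and 1439619_at by -0.92 (adjusted p = 0.0269). The first call was lost without any single one of the 4 arrays (adjusted p from 0.0812 to 0.232), without the filter on dim probe sets (0.0624) and after quantile normalization (0.114). The second call was lost without CD4 T replicate 2 (-0.53, 0.325) or NK replicate 1 (adjusted p = 0.0836) or 2 (-0.84, 0.15), with housekeeping centring (-0.63, 0.311) and on the compared arrays alone (0.0678).

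The comparison of the NK genotypes asks which transcripts of these cells depend on Ets1, a transcription factor that NK cell development needs. Levels of the sex-linked genes Kdm5d and Xist also differed between these arrays, though not on every probe set, as given above. On the Ets1 probe set of highest mean (1426725_s_at) the arrays labelled Ets1++ had 11.34 and 11.45 and those labelled Ets1-- 11.28 and 10.85 (-0.33 ± 0.42, adjusted p = 0.899). In the same order, 1422027_a_at had 8.34 and 8.51 against 6.53 and 7.22. The probe set 1422028_a_at had 9.11 and 9.67 against 8.46 and 8.46, and 1452163_at 11.49 and 11.50 against 10.85 and 10.53. Where these probes lie relative to the deleted part was not analysed here, so they do not check the labels, and the groups are named by their labels.

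Between the NK genotypes 1 of the 16 member probe sets passed, Tcf4 1416724_x_at, where 3.80% of all probe sets did. It was 2.37-fold lower in the arrays labelled Ets1-- (-1.25 ± 0.28; adjusted p = 0.0161), which stood at 6.89 and 6.65 against 8.16 and 7.87. The probe set 1424089_a_at differed in the same direction, with 5.58 and 5.53 against 6.78 and 6.61 (-1.14 ± 0.37; adjusted p = 0.111). The probe sets 1416723_at and 1434148_at showed no such difference, -0.05 ± 0.29 and 0.02 ± 0.35, and their arrays overlapped. The call was lost without NK Ets1++ replicate 1 (-1.10, adjusted p = 0.201) or 2 (-1.39, 0.0718) and without Ets1-- replicate 2 (-1.13, 0.13), and in the mean of all Tcf4 probe sets (-0.39, 0.37). Markers of GMP also differed between these arrays, with a mean of 6.79 (6.77 to 6.80 by array) for 5 of 5 markers in Ets1++ and 4.78 (4.34 to 5.23) in Ets1--, and Mpo at 8.21 and 4.62. Their part in the Tcf4 difference was not tested.

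Id2 differed between the genotypes by -0.79 ± 0.46 (adjusted p = 0.522) and -0.76 ± 0.29 (adjusted p = 0.187) on the probe sets tested, and neither passed. Fitted on the 4 NK arrays alone, the first of these passed (-0.79, adjusted p = 0.0161). Id3 stood at 4.30 and 4.93 against 3.81 and 3.57 (0.93 ± 0.36; adjusted p = 0.199), and Tcf3 and Tcf12 differed by 0.45 ± 0.35 (adjusted p = 0.713) and -0.25 ± 0.37 (adjusted p = 0.919).

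The Tcf4 probe sets did not run in parallel across the populations. The pair with the lowest correlation, 1434148_at and 1424089_a_at (r = 0.62), was chosen for that and is described without a test. The first minus the second was 2.50 ± 0.27 (SD, n = 3) in GMP, 2.17 ± 0.02 (n = 2) in NK cells without Ets1, 1.01 ± 0.15 (n = 2) in NK cells with Ets1 and 0.90 ± 0.78 (n = 3) in CLP. It was -0.09 ± 0.09 in pro-B cells, -0.26 ± 0.88 in CD4 T cells, -0.85 ± 0.05 in HSC, -0.88 ± 0.19 in LMPP and -1.16 ± 0.68 in MPP (n = 2 each). In GMP, 1424089_a_at was 12.5-fold lower than in LMPP (-3.65 ± 0.34; adjusted p = 4.56e-07) and 1434148_at differed by -0.27 ± 0.32 (adjusted p = 0.612). GMP also had the strongest 3′ bias, 6.44 to 6.68 on the actin probe sets, while the values were 2.86 and 4.07 in NK cells without Ets1 and 2.90 and 2.76 with it. The part of RNA quality in this was not tested, and where in the transcript the probes lie was not analysed here.

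**Figure D4:**
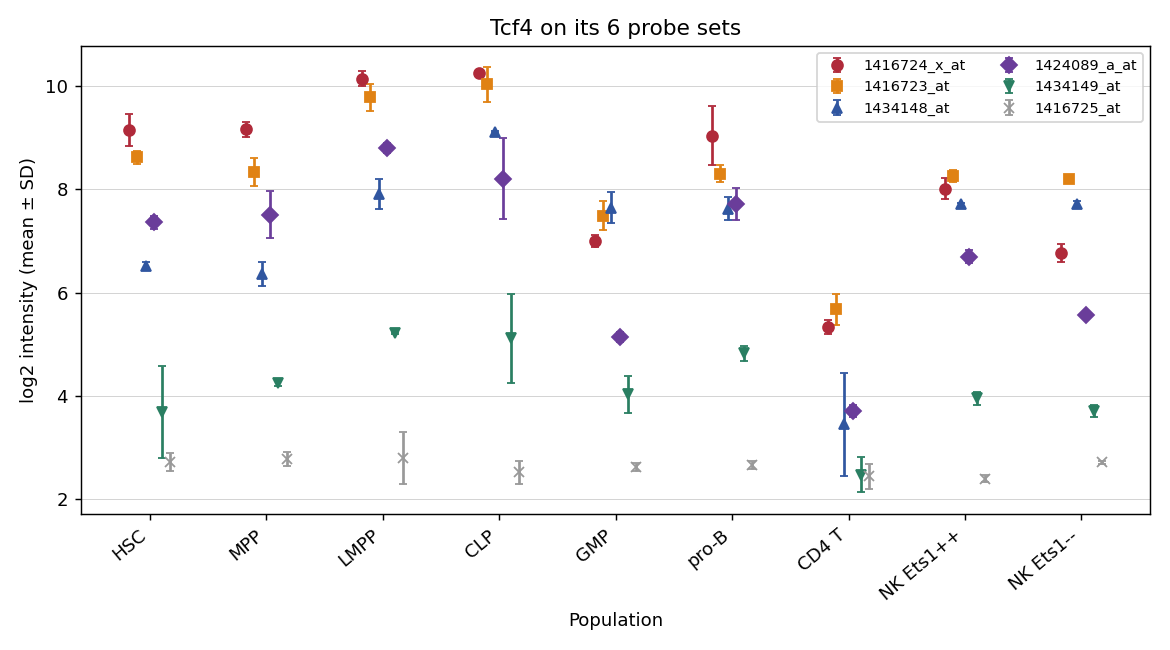
Log2 intensity (y axis, mean with SD, 2 or 3 arrays per group) of the 6 Tcf4 probe sets in the 9 populations (x axis). The probe set 1424089_a_at lies 3.65 lower in GMP than in LMPP while 1434148_at differs by -0.27, and 1416725_at stays dim throughout.

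To describe the balance of activators and inhibitors, each gene was centred on the mean of its 9 group means, and the mean of the Id genes was subtracted from that of the E protein genes on each array. The resulting balance is relative to the average population and carries no test. It includes Id1 although that gene was above the array median on just 1 of the 20 arrays; without Id1, a variant chosen after seeing the data, the balance was 0.43 in GMP, -4.24 in CD4 T cells and -2.25 and -2.66 in NK cells with and without Ets1. It was highest in LMPP (1.66 ± 0.41, SD, n = 2), MPP (1.49 ± 0.26, n = 2), CLP (1.39 ± 0.25, n = 3), HSC (1.06 ± 0.54, n = 2) and pro-B cells (0.93 ± 0.66, n = 2), and these 5 overlapped. GMP stood near the average at 0.10 ± 0.07 (n = 3). NK cells with Ets1 had -1.59 ± 0.10, NK cells without it -1.84 ± 0.18 and CD4 T cells -3.20 ± 0.25 (n = 2 each), below every array of the other populations.

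The components of the balance differed between CD4 T and NK cells. In CD4 T cells the E protein mean was 1.22 below the average (-1.22 ± 0.35) and the Id mean 1.98 ± 0.10 above it. In NK cells with Ets1 the E protein mean was at the average (-0.08 ± 0.13) and the Id mean 1.51 ± 0.04 above it. That E protein mean joins the highest Tcf12 level of the 9 populations (10.25) with low Tcf3. Mean Tcf3 was 6.97 in NK cells with Ets1 and 6.82 in CD4 T cells, while mean Tcf4 was 8.01 and 5.33. Pairing Tcf3 with Id2 alone put NK cells with Ets1 lowest (-6.00 ± 0.31), then NK cells without it (-4.76 ± 0.04) and CD4 T cells (-3.70 ± 0.25), and pro-B cells highest (4.57 ± 1.03), overlapping MPP (3.98 ± 0.26). Pairing Tcf3 with Id3 alone put CD4 T cells lowest (-4.46 ± 0.68) and pro-B cells next (-1.50 ± 0.32), with NK cells with Ets1 at -0.12 ± 0.05. Pro-B cells thus had the highest mean of all populations against Id2 and the lowest but that of CD4 T cells against Id3.

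**Figure D5:**
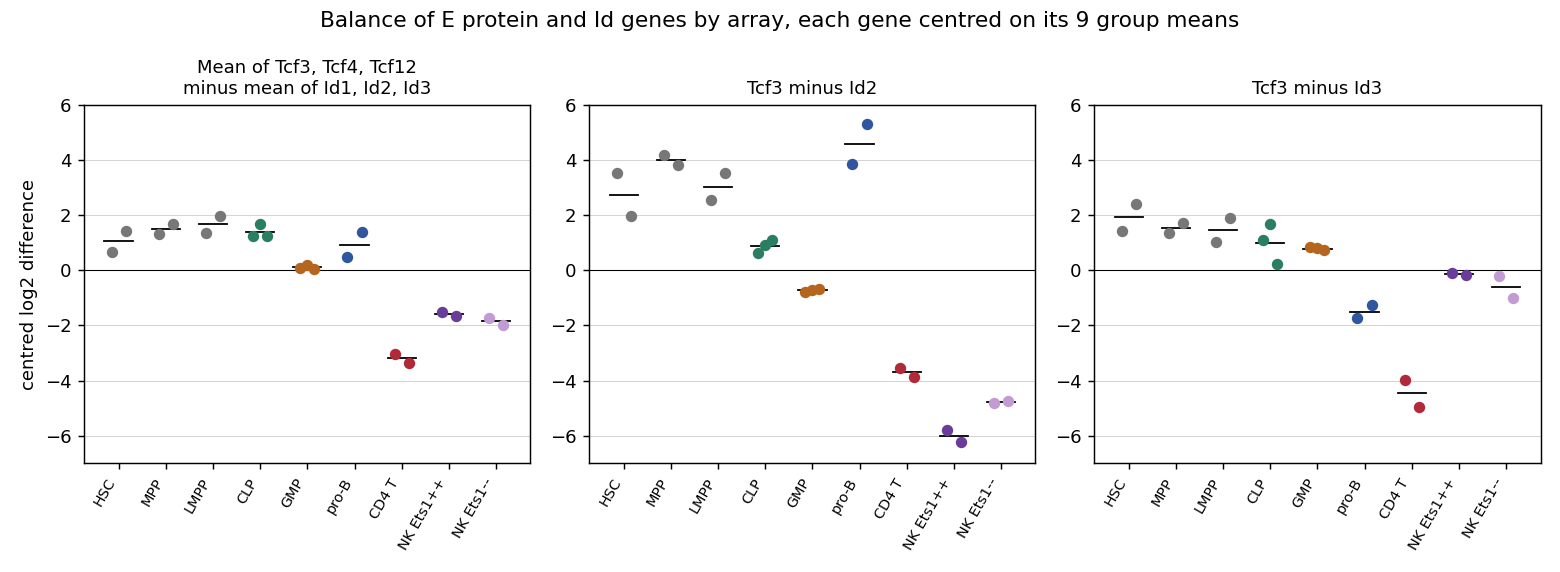
Centred log2 difference (y axis) per array in the 9 populations (x axis) with a bar at the group mean: all E protein genes minus all Id genes (left), Tcf3 minus Id2 (middle) and Tcf3 minus Id3 (right). On the left the NK and CD4 T cell arrays lie between -1.53 and -3.38, and pro-B cells are above 0 in the middle and below 0 on the right.

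Over the 20 arrays Id2 correlated with Tcf12 (Pearson's r = 0.75) and inversely with Tcf3 (r = -0.66) and Tcf4 (r = -0.65), while Id3 followed none of the others closely (r from -0.40 to 0.16). Replicate arrays share their population here, so these values describe 9 populations rather than 20 independent samples. Among the 13476 genes tested, those with patterns most like that of Id2 were Cdyl2 (r = 0.98), Resf1 (r = 0.97) and Unc119b (r = 0.96), and the most opposed was Chchd6 (r = -0.95). For Id3 they were Lef1 (r = 0.93), a transcription factor of lymphocyte precursors, Ms4a1 (r = 0.91), which encodes the B cell antigen CD20, and Sit1 (r = 0.90), with Kdm5d (r = -0.97) most opposed, the Y-linked gene whose levels of 1.97 to 2.26 in pro-B and CD4 T cells, the populations with high Id3, are given above. Tcf4 was most like Mef2c (r = 0.92), a transcription factor of lymphoid progenitors, Abi2 (r = 0.91) and Repin1 (r = 0.89), and least like Ahcyl2 (r = -0.92). Tcf3 was most like Ddah2, Nudc and 2010204K13Rik (r from 0.92 to 0.93) and least like Sorl1 (r = -0.89), and Tcf12 most like Lsm14a, Apc and Cwf19l2 (r = 0.96 each) and least like Zfp469 (r = -0.93). Id1, nearly all of whose values are dim, had Platr10, Hspb8 and Gipc2 (r from 0.78 to 0.83) and Cep152 (r = -0.74).

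B lineage genes that E proteins are known to activate were counted next, over 16 of 17 listed genes that were tested, each on its probe set of highest mean. From LMPP to CLP 14 rose and 0 fell, with a median change of 2.72, where 6.07% of all genes rose and 17.6% fell and the median of all genes was -0.08. They included Ebf1 (7.93), the factor that specifies B cells, Rag1 (6.77), of the recombinase that assembles antigen receptor genes, Il7r (6.02), the interleukin receptor of lymphoid progenitors, and Vpreb1 (5.49), of the surrogate light chain. On the same arrays Tcf3 was lower in CLP than in LMPP. As given above, that difference was not called with housekeeping centring or on the compared arrays alone. From CLP to pro-B cells 8 rose, among them Pou2af1 (4.97) and Igll1 (4.47), and 2 fell, Rag1 and Dntt (-1.35 for Dntt), where 20.1% of all genes rose and 12.6% fell.

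In NK cells with Ets1 14 of these 16 genes were lower than in CLP and 0 higher (18.1% of all genes fell), and 15 were lower than in pro-B cells (11.2% fell). The list holds Rag2, the gene that the mice of these NK cells lacked, and their strain differs as well. In CD4 T cells 11 were lower than in CLP and 3 higher: Pou2af1 (1.40), Bach2 (1.37) and Foxo1 (1.00), where 18.3% of all genes fell and 28.1% rose. In the arrays labelled Ets1--, against those labelled Ets1++, Il7r was lower (-2.59) and Pou2af1 higher (2.41), and the other 14 did not pass, where 3.58% of all genes were called.

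Of 14 T lineage genes tested, 5 were higher in CD4 T cells than in CLP, among them Bcl11b (7.85), Cxcr5 (5.10) and Cd4 (4.49), and 4 were lower, Rag1 (-7.24) and Rag2 (-4.02) the most, where 28.1% of all genes rose and 18.3% fell. Rag1, Rag2 and Il7r are on the B list too. Of 16 NK and innate lymphoid genes, 15 were higher in NK cells with Ets1 than in CLP, with Gzma (8.75), Tbx21 (7.36), Prf1 (6.62) and Klrd1 (6.49) the most, and Rora was lower (-1.26), where 31.3% of all genes rose. In CD4 T cells 8 of the 16 were higher than in CLP, with Gata3 (3.27), Il2rb (3.25) and Tbx21 (3.13) the most.

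Among 11 other helix-loop-helix partners tested, NK cells with Ets1 had lower Lmo2 (-5.08), Lyl1 (-4.84), Mycn (-3.26) and Tal1 (-2.29) than CLP and higher Bhlhe40 (5.24), a repressor that binds E-boxes, which makes 5 lower and 1 higher, where 18.1% of all genes fell and 31.3% rose. CD4 T cells had 4 lower, Lyl1 (-4.14) and Lmo2 (-3.66) the most, and 2 higher, Bhlhe40 (1.78) and Ldb1 (0.78), where 18.3% of all genes fell and 28.1% rose. Lmo2 and Tal1, which form a complex with E proteins in stem and erythroid cells, already were lower in CLP than in LMPP (-3.14 and -1.30), as 3 of 11 were and 0 higher (17.6% of all genes fell and 6.07% rose), and in pro-B cells than in CLP (-2.39 and -2.87), as 3 of 11 were and 0 higher (12.6% fell and 20.1% rose).

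Of 11 cofactors and factors of Id protein turnover, 4 were higher and 2 lower in pro-B cells than in CLP, 2 higher and 3 lower in CD4 T cells, and 5 higher and 2 lower in NK cells with Ets1, beside 20.1%, 28.1% and 31.3% of all genes higher and 12.6%, 18.3% and 18.1% lower. Cbfa2t3, a corepressor that binds E proteins, was lower than in CLP in pro-B cells (-2.29), CD4 T cells (-4.31) and NK cells with Ets1 (-2.59). The ubiquitin ligase gene Stub1 was higher than in CLP in all 3 (1.51, 1.63 and 1.16), and Skp2, of another ubiquitin ligase, was higher in pro-B cells (1.39) and lower in CD4 T (-1.80) and NK cells (-1.61). Usp1, which removes ubiquitin from Id proteins, rose from LMPP to GMP (1.44) and was not called in the 3 comparisons with CLP.

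Signals upstream of Id genes were read from 19 genes of the TGF-beta and BMP pathways, all tested. In CD4 T cells 7 were higher than in CLP and 3 lower, and in NK cells with Ets1 4 were higher and 2 lower. Of all genes 28.1% were higher and 18.3% lower in CD4 T cells, and 31.3% higher and 18.1% lower in NK cells, so these counts are not far from those of all genes. Tgfbr2, a TGF-beta receptor chain, was higher in both (3.57 in CD4 T cells and 2.63 in NK cells), as was Skil, an inhibitor of Smad proteins (3.05 in each), and Eng was lower in both (-1.64 and -2.37). Of 14 other regulators of Id genes, Egr2, a factor induced by antigen receptor signals, was higher in CD4 T cells (5.94) and in NK cells (5.33) than in CLP. Of the 14, 6 rose and 3 fell in CD4 T cells, and 5 rose and 1 fell in NK cells, beside the same shares of all genes. Nfil3, needed for NK development, was higher in NK cells with Ets1 than in CLP (2.25) and higher again in the arrays labelled Ets1-- (1.47), the single call among the 14 between the genotypes.

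Of 10 cell cycle and survival genes tested, 3 were higher in NK cells with Ets1 than in CLP, led by the cyclin-dependent kinase inhibitor Cdkn1b (2.45), and 5 were lower, led by Mycn (-3.26), which is also among the helix-loop-helix partners, and Cdk6 (-2.98), where 31.3% of all genes were higher and 18.1% lower. CD4 T cells had Cdkn1b (2.37) and Ccnd3 (1.15) higher and Cdk6 (-4.42), Cdkn1a (-3.88), Mycn (-3.21) and Myc (-1.42) lower, where 28.1% of all genes were higher and 18.3% lower. In pro-B cells Ccnd3 (2.77) and Gadd45a (1.07) were higher than in CLP and 5 genes lower, with Mycn (-2.54) and Bcl2 (-2.51) the most, where 20.1% of all genes were higher and 12.6% lower. The lists were drawn up with earlier results of these arrays known and describe the pathway around the 6 genes.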

How the data were processed

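Expression was measured on Affymetrix mouse arrays. The deposited values are linear intensities that the authors made with RMA, per the submitters' processing notes, whose version was not given in the sources used here; log2 was taken before any other step. Symbols came from the platform annotation (34958 probe sets with 1 symbol, 932 with several, 9211 with none) and 34754 were matched to RefSeq (GRCm38.p6) for names. No 2 arrays were identical.

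Groups follow the labels. After leaving out 64 control probe sets and those above the array median on fewer than 2 arrays, 28989 probe sets (13476 genes by probe set of highest mean) were fitted together with limma 3.58.1 (lmFit, eBayes with an intensity trend, 11 residual degrees of freedom; R 4.3.3) over all 20 arrays, with Benjamini-Hochberg adjustment over all of them and a call at an adjusted p below 0.05. The fit was tested on simulated data.

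Every probe set of the 6 genes is named, with the 3 genes most like and the 1 least like each, and up to 4 called members of a list by size of change, or fewer. Single genes named for contrast (Usp1, Eng, Ccnd3, Gadd45a, Tal1, Lmo2, Ncr1, Mpo, Stub1, Skp2, Kdm5d, Xist) were chosen after their values were seen. Members and lists were chosen with earlier results of these data known. Listed genes without a probe set past the filter were not analysed here. Alternatives changed the filter, the probe set per gene, the variance prior, the scaling, the arrays fitted, the CLP arrays and the replicate number; the number of arrays limits the precision.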

Additional observations from a re-analysis of the deposited data

How the results depend on the processing

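The counts of called member probe sets changed most where few were called. Between MPP and HSC the count was 0, and 1 with housekeeping centring. Between LMPP and MPP it was 2, and 1 without the filter, 0 after repeated quantile normalization and 0 with housekeeping centring, and 1 gene was called when its probe sets were averaged. Between CLP and LMPP it was 3, and 5 after quantile normalization, 10 with housekeeping centring, 0 with CLP replicate 2 alone and 0 on the compared arrays alone. With housekeeping centring Tcf3 1427764_a_at turned from negative to 0.0132 there, and the share of all calls that were up went from 31.5% to 94.1%. The same centring moved that share from 56.2% to 87.4% for GMP against LMPP, from 58.3% to 16.7% for pro-B cells, from 59.8% to 17.4% for CD4 T cells and from 61.8% to 30.9% for NK cells against CLP, from 56.4% to 73.9% for NK against CD4 T cells and from 61.4% to 49.5% for CD4 T against pro-B cells. Between pro-B cells and CLP 10 were called, and 5 on the compared arrays alone. Between CD4 T cells and CLP averaging probe sets by gene gave 5 genes instead of 3. Between the NK genotypes 1 was called, 2 with housekeeping centring, 3 on the compared arrays alone, and 0 genes by the mean of probe sets. The cause of these changes was not tested.

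The balance from Tcf3 and Id2 alone was 2.74 in HSC, 3.98 in MPP, 3.03 in LMPP, 0.88 in CLP, -0.72 in GMP, 4.57 in pro-B cells, -3.70 in CD4 T cells and -6.00 and -4.76 in NK cells with and without Ets1. From the mean of all probe sets it was 0.75 in MPP, 1.04 in LMPP, 1.11 in CLP, 0.49 in GMP, -2.62 in CD4 T cells and -0.82 and -0.84 in NK cells with and without Ets1. After quantile normalization it was 1.78 in CLP, 0.0037 in GMP and -1.79 in NK cells with Ets1, and with CLP replicate 2 alone 1.65 in CLP. Without Id1, chosen after seeing the data, it was 1.72 in HSC, 2.05 in MPP, 1.78 in CLP, 0.43 in GMP, -4.24 in CD4 T cells and -2.25 and -2.66 in NK cells with and without Ets1.

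Leaving out 1 array at a time, an alternative that for the balance was chosen after seeing the data, gave 0 to 1 calls for MPP against HSC, 0 to 0 for LMPP against MPP, 0 to 4 for CLP and 6 to 10 for GMP against LMPP, 8 to 11 for pro-B cells, 10 to 12 for CD4 T cells and 8 to 12 for NK cells against CLP, 6 to 9 for NK against CD4 T cells, 6 to 7 for NK and 10 to 11 for CD4 T cells against pro-B cells, 0 to 1 between NK genotypes and 15 to 16 among all groups. The balance then ranged from 0.72 to 1.39 in HSC, 1.32 to 1.66 in MPP, 1.40 to 1.92 in LMPP, 1.26 to 1.46 in CLP, 0.0668 to 0.122 in GMP, 0.52 to 1.34 in pro-B cells, -3.36 to -3.04 in CD4 T cells, and -1.65 to -1.53 and -1.96 to -1.73 in NK cells with and without Ets1. Of 1100 alternative values for 87 single results, 945 kept direction and call, 153 lost the call, 1 gained it and 1 reversed. With the replicate number as a block 11 probe sets were called for GMP against LMPP instead of 13, and no count moved by over 1.5 times. The numbers share no source in the labels. Deviations of the replicate 1 arrays from their group means correlated from -0.22 to 0.33 over 36 pairs of groups. Of 20 arrays 16 were closest to an array of their own number. In a group of 2 arrays the deviations are exact opposites, so these matches are tied and their count does not show whether the number marks a batch.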
